A study of Mus musculus with 8 samples.

Results

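Clade B serpins are the ovalbumin-like branch of the serpin superfamily, and the epidermal members were compared at birth between mice whose epidermis expresses a mutant form of the helicase Twinkle and their controls. The genes were those whose symbol begins with Serpinb on a probe set naming 1 gene, and 25 of the 22180 genes measured met this rule. Where a gene had several probe sets the brightest represented it, which applied to Serpinb9b alone. The gene table lists 29 Serpinb genes. Serpinb10 shared its probe set with Serpinb2, and Serpinb3b, Serpinb9h and the pseudogene Serpinb1-ps1 were not analysed here.

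A total of 8 arrays measured total RNA from C57BL/6J epidermis at postnatal day 0, with 4 arrays per genotype. The K320E group carried the genotype K320E-TwinkleEpi, in which the K14 promoter, active in basal keratinocytes, directs expression of K320E-Twinkle, a mutant of the enzyme that unwinds mitochondrial DNA. The control group carried R26-K320E-TwinkleloxP/+, so its label names the K320E-Twinkle allele as well. The labels do not state whether the arrays came from separate animals or litters, so the p-values refer to array-to-array variation that could be technical. The values are log2 intensities, on which a difference of 1 is a doubling, and the number of arrays limits their precision.

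Serpins are protease inhibitors that trap their target by offering a reactive loop as bait and then changing shape around the bound enzyme. Most serpins are secreted, whereas clade B members lack a classical signal peptide and act mainly inside cells. In the epidermis they are known for restraining cathepsins, kallikreins and plasminogen activators in keratinocytes. In the mouse the genes lie in a pair of clusters. The chromosome 1 cluster held 10 of the genes measured and the chromosome 13 cluster held 15, where the Serpinb1, Serpinb6 and Serpinb9 genes have been duplicated many times in rodents.

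Twnk, which encodes Twinkle, measured 8.91 to 9.28 in K320E and 6.55 to 6.95 in controls, a difference of 2.31 (SE 0.11, limma adjusted p = 0.00011). All 12 measured keratinocyte markers were above background on all 8 arrays, led by the suprabasal keratins Krt10 and Krt1, and the list mean was 11.55 to 11.67 in K320E and 11.48 to 11.62 in controls. Control replicate 2 had Xist at 9.27 together with a Y-linked mean of 9.05, and control replicate 3 had Xist at 6.17 with a Y-linked mean of 4.75. On the other arrays a Y-linked mean of 4.75 to 4.82 went with Xist at 12.07 to 12.27, or one of 8.64 with Xist at 6.84 (K320E replicate 3). Differences without these arrays are given for the clade B serpins whose difference changed sign, passed the threshold or moved by over 1.5 times, except those below background on all arrays other than Serpinb13.

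The first question was which paralogs the epidermis expresses. The deposited values have no detection calls, so the 95th percentile of the mean levels of 1105 olfactory receptor genes, 6.06, served as the background level. By this measure 13 of the 25 genes were above background on all 8 arrays, 8 were below it on all 8 and 4 were mixed. Over all genes 51.3% were above background on all arrays, close to the 52% of the clade B serpins. Probe sets differ in brightness, so the levels of different paralogs are not ranked against each other.

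The genes above background lay mostly in the chromosome 1 cluster, with 9 of its 10 genes against 4 of 15 in the chromosome 13 cluster. On chromosome 1 these were Serpinb5, Serpinb12, Serpinb3a, Serpinb3d, Serpinb3c, Serpinb11, Serpinb7, Serpinb2 and Serpinb8. The exception was Serpinb13, which encodes headpin, an inhibitor of cathepsins L and K, and which lay between 4.64 and 5.21 on the 8 arrays. On chromosome 13 the genes above background were Serpinb6a, Serpinb6b, Serpinb6c and Serpinb9b. For Serpinb9b this holds for the brighter probe set alone. Its dimmer probe set lay at 5.29 to 5.8, below background on all 8 arrays. Serpinb1a was above it on 7 arrays, Serpinb9 on 2, and Serpinb1b and Serpinb1c on 1 each. Serpinb9c, Serpinb9d, Serpinb9e, Serpinb9f, Serpinb9g, Serpinb6d and Serpinb6e were below it on all arrays. With the 99th percentile of the olfactory receptor genes, 6.97, as the level, 9 of the 25 were above it on all arrays (8 on chromosome 1 and 1, Serpinb6a, on chromosome 13), against 33.3% of all genes. Serpinb3c, Serpinb6b, Serpinb6c and Serpinb9b then dropped out.

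**Figure D1:**
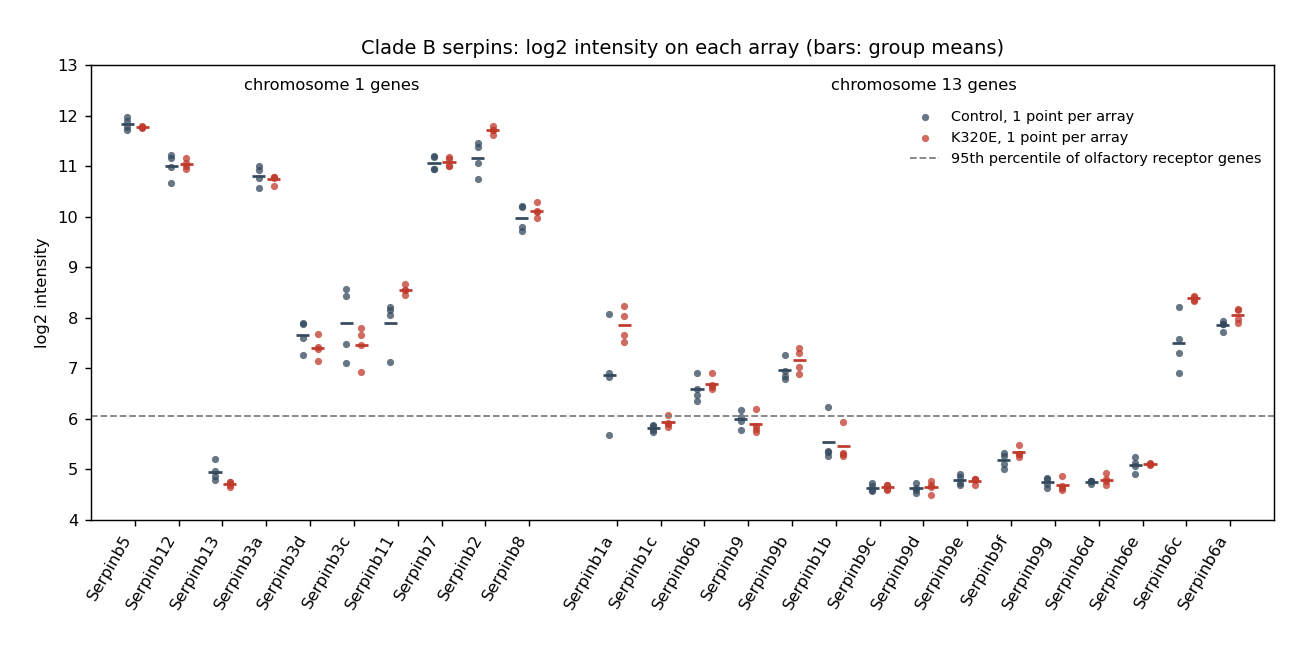
The y axis gives the log2 intensity of each of the 25 clade B serpins, ordered along the x axis by position within the chromosome 1 and chromosome 13 clusters. Points are single arrays (4 control, 4 K320E), short bars are group means, and the dashed line is the background level of 6.06, which 9 of 10 chromosome 1 genes and 4 of 15 chromosome 13 genes exceeded on every array.

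The sequences upstream of the genes are shown because their motif content differed between the clusters. RefSeq promoters (GRCm38.p6) were matched for 23 of the 25 genes, and the 250 bases before each annotated start were searched on both strands. The motif TGANTCA, a loose form of the AP-1 binding sequence TGACTCA, was present before 6 of 9 chromosome 1 genes and 0 of 14 chromosome 13 genes, against 6.7% of all 32851 promoters of that length. All 6 genes were above background, while the 10 genes with a promoter that were not above background had no match. Those 10 all lay on chromosome 13, since Serpinb13 and Serpinb1a were the genes without a matched promoter. The 4 chromosome 13 genes above background had no match either. A relation of the motif to expression therefore cannot be told apart from the difference between the clusters. The strict form TGACTCA was found before Serpinb7 and Serpinb8, 2 of the 23 genes, against 4.5% of all promoters. The remaining genes with a match had only the loose form. TATAAA was found before 6 of the 9 chromosome 1 genes, 1 of the 14 chromosome 13 genes and 12.4% of all promoters. In these counts a gene with several annotated starts is counted once, whereas the shares over all promoters count each start. Counted by start, 7 of the 29 clade B promoters held TGANTCA and 9 held TATAAA. Some close paralogs resembled each other upstream and are not independent counts. Serpinb9d, Serpinb9e, Serpinb9f and Serpinb9g were 80.8% to 92.9% identical there, and Serpinb3a and Serpinb3c 71.8%, against a median of 49.7% over all pairs of clade B promoters. The promoters of the 6 genes with TGANTCA were 45.9% to 54.9% identical between genes, around that median. A match is a description of the sequence and not evidence that a factor binds.

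The 250 bases before the start are printed for Serpinb2, Serpinb11 and Serpinb6c, the 3 genes above background whose K320E and control values did not overlap. Capitals mark TGANTCA and TATAAA on either strand. Serpinb2 (chr1:107511173-107511422, plus strand) has an annotated second start whose window overlaps this one. Serpinb11 lies at chr1:107362064-107362313 on the plus strand. Serpinb6c, at chr13:33905192-33905441 on the minus strand, holds neither motif.
Serpinb2: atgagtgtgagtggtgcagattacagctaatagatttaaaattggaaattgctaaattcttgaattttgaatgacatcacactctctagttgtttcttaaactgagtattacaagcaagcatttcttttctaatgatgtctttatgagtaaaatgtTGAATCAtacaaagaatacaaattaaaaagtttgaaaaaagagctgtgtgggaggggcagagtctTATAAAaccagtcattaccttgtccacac
Serpinb11: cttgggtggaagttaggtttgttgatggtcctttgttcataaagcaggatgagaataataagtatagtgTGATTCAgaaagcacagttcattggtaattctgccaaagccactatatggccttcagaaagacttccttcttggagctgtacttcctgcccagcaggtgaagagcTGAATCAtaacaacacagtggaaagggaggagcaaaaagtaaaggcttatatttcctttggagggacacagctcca
Serpinb6c: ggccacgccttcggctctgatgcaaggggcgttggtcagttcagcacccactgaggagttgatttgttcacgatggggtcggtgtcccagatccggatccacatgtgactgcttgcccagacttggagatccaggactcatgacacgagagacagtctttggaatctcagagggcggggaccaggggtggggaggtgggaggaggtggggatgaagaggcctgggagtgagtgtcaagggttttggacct

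The other 4 genes with a match are shown by the match and 12 bases on each side, to let the variable base be compared. All are on the plus strand. The match began 140 bases before the start in Serpinb5 (chr1:106861023-106861053), 45 in Serpinb12 (chr1:106934392-106934422), 45 in Serpinb7 (chr1:107422632-107422662) and 23 in Serpinb8 (chr1:107589971-107590001).
Serpinb5: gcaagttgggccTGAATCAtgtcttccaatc
Serpinb12: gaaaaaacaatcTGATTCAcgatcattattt
Serpinb7: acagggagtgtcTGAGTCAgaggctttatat
Serpinb8: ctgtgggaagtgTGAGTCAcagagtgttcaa

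The main question was how these paralogs differ between K320E and control epidermis. No clade B serpin passed limma's test: 0 of 25 genes had an adjusted p under 0.05 over all genes, against 0.879% of the 22180 genes tested (195 genes). The lowest adjusted p among the 25 was 0.124. At an unadjusted limma p under 0.05 there were 6 of 25, of which 5 were higher and 1 lower in K320E, against 14.8% of all genes. In bulk tissue, fewer cells of a type and less RNA per cell cannot be told apart. The values of the genotypes did not overlap for 4 of the 25, against 9.25% of all genes. Of these, 3 were higher in K320E (5.5% of all genes were) and 1 was lower (3.75% of all genes were). The median log2 difference, K320E minus control, was 0.029 over the 25 genes and -0.001 over all genes, and 16 of 25 differences were positive against 49.7% of all genes. Among the genes above background it was 0.11 with 9 of 13 positive, against 0.026 and 55.7% over all genes above background.

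The precision of these differences varied between paralogs. The 95% interval of the log2 difference lay within 0.5 on either side of 0 for 17 of the 25 genes and within 1 for 21. The 4 genes with wider intervals were Serpinb1a, Serpinb6c, Serpinb11 and Serpinb3c. A gene that did not pass the test is not thereby shown to be equal in the genotypes.

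**Figure D2:**
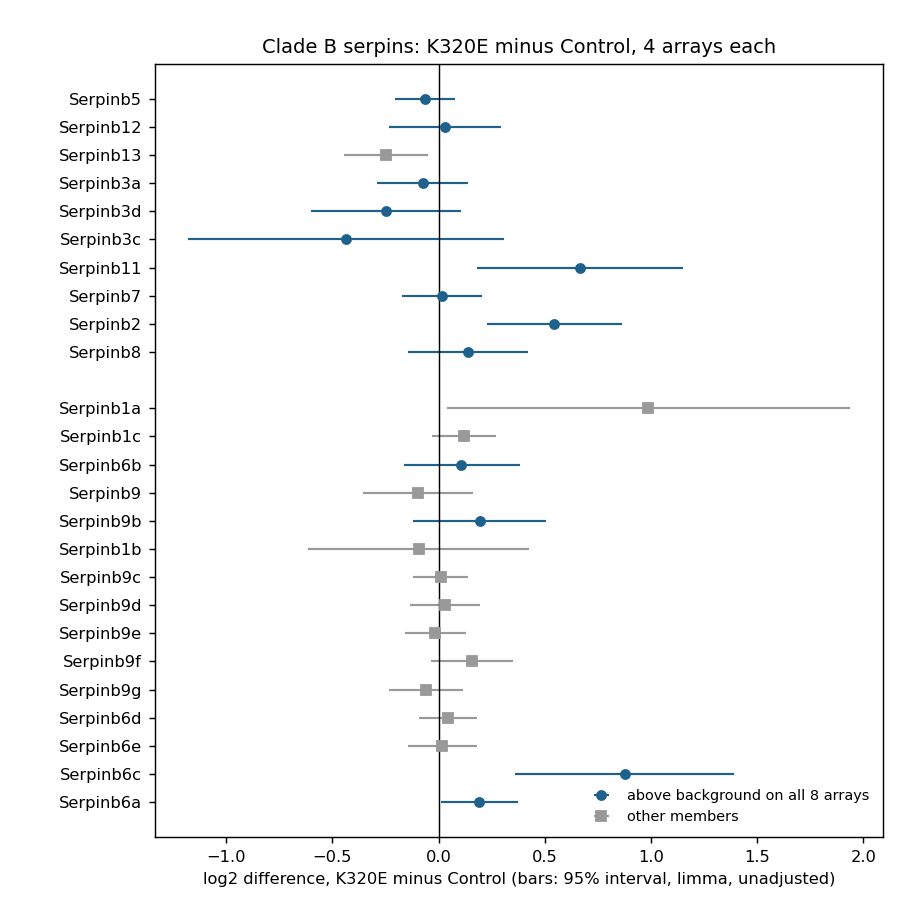
Each point is the log2 difference of K320E minus control for 1 clade B serpin (4 arrays per group), with the unadjusted 95% interval of limma's fit as a bar. Round points mark the 13 genes above background on all 8 arrays, and squares the other 12. Serpinb1a, Serpinb6c, Serpinb11 and Serpinb2 lie farthest to the right, and 17 of 25 intervals lie within 0.5 of 0.

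Serpinb2 encodes plasminogen activator inhibitor 2, which inhibits urokinase and is made by keratinocytes in culture and in skin. Its intensity was 11.71, 11.62, 11.79 and 11.72 in K320E replicates 1 to 4 and 10.75, 11.45, 11.38 and 11.06 in control replicates 1 to 4. Every K320E array lay above every control, and control replicates 1 and 4 were the lowest. The difference was 0.55 (SE 0.14, 95% interval 0.23 to 0.87, or 1.46-fold), with a limma adjusted p of 0.124. The probe set that names Serpinb10 and Serpinb2 together measured 10.65 ± 0.13 (SD, n = 4) in K320E against 10.09 ± 0.58 (SD, n = 4) in the control arrays. Its difference was 0.56 (SE 0.25, limma adjusted p = 0.372 over all 33793 probe sets). It cannot tell the genes apart. Without control replicates 2 and 3, the arrays with unusual sex-linked transcripts and the highest controls for Serpinb2, the difference was 0.80 and passed the threshold (limma adjusted p = 0.0272).

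Serpinb6c is a rodent paralog of Serpinb6a, whose human counterpart inhibits cathepsin G. It measured 8.36, 8.33, 8.41 and 8.43 in K320E and 7.30, 7.59, 8.22 and 6.91 in controls, in replicate order. The K320E arrays lay close together (SD 0.045) and the controls far apart (SD 0.55), with control replicate 3 nearest to K320E. The difference was 0.88 (SE 0.23, 95% interval 0.36 to 1.39, or 1.84-fold) with a limma adjusted p of 0.126. It passed the threshold without control replicate 3 (1.12, limma adjusted p = 0.0159) and without control replicates 2 and 3 (1.28, limma adjusted p = 0.0133).

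Serpinb11 encodes epipin, which inhibits trypsin-like enzymes in the mouse and has lost this activity in humans. It measured 8.44, 8.56, 8.54 and 8.67 in K320E and 8.05, 8.16, 8.21 and 7.13 in controls. Every K320E array was above every control, and control replicate 4 lay far below the other controls. The difference was 0.67 (SE 0.22, 95% interval 0.18 to 1.15, limma adjusted p = 0.198). Without control replicate 4 it was 0.41, with a smaller SE of 0.075 (limma adjusted p = 0.0674).

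Serpinb1a encodes an inhibitor of neutrophil elastase, cathepsin G and proteinase 3, and it had the largest difference of the 25 genes. It measured 7.66, 7.51, 8.23 and 8.04 in K320E and 6.83, 6.91, 8.07 and 5.68 in controls. The groups overlapped, since control replicate 3 lay above K320E replicates 1, 2 and 4. The difference was 0.99 (SE 0.42, 95% interval 0.04 to 1.94), with a limma adjusted p of 0.317. It was 0.59 without control replicate 4 and 1.61 without control replicates 2 and 3 (limma adjusted p = 0.0894). The duplicates Serpinb1b and Serpinb1c had differences of -0.094 and 0.12 near or below background.

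Neutrophils also express Serpinb1a, and their markers were therefore read beside it. Of 12 neutrophil markers, 0 were above background on all 8 arrays and 9 were below it on all 8, among them Ngp, Ltf, Camp, Mpo, Elane and Ly6g. The list mean was 5.66 to 5.73 in K320E and 5.37 to 5.61 in controls, and 10 of the 12 differences were positive (median 0.052). The chemokine receptor gene Cxcr2 and the collagenase gene Mmp8 were the brightest of the list. Cxcr2 measured 7.99 to 8.14 in K320E and 6.54, 6.51, 7.97 and 5.83 in controls. Its control replicate 3 was the highest control and replicate 4 the lowest, as for Serpinb1a. This order was not particular to the pair, since Serpinb6c, Serpinb11 and the inhibitor gene Slpi had it too, while Serpinb2 did not. The Cxcr2 difference was 1.32 (SE 0.37, limma adjusted p = 0.147), and its groups did not overlap. The part of neutrophils in the Serpinb1a values was not tested beyond these levels. Of the Serpinb1a targets in the protease list, Elane, Prtn3 and Ctsg were below background on all 8 arrays.

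The control arrays differed from each other in a shared order for most clade B serpins. Of the 13 genes above background, 12 had both control replicates 2 and 3 above both control replicates 1 and 4, Serpinb3d being the exception. This pattern, chosen after the values were seen, held for 24.6% of all genes above background. Control replicate 4 was the lowest control for 9 of the 13, against 30.8% of all genes above background. The SD was larger in controls than in K320E for 11 of the 13, against 46.2%. The hair structure list, led by the inner root sheath genes Tchh and Krt25, ran the other way: its mean was 8.07, 7.32, 7.49 and 8.56 in control replicates 1 to 4 and 6.96 to 7.33 in K320E. The fibroblast list had means of 7.54, 7.92, 8.16 and 7.51 in the same controls and 7.74 to 8.37 in K320E. Its brightest genes, Postn and Dcn, did not follow this order of the controls. They had differences of -0.23 and -0.15 between genotypes, where 8 of the 10 genes of the list were positive. The skeletal muscle list (Tnnt3, Mylpf) had means of 6.25, 7.03, 6.94 and 6.26 in these controls and 6.69 to 7.76 in K320E, with all 10 differences positive. This order of the controls was not particular to these lists. The keratinocyte list had means of 11.481, 11.619, 11.62 and 11.545 in control replicates 1 to 4. Control replicates 2 and 3 were also above 1 and 4 for the monocyte and macrophage and mast cell lists. The same held for the target protease and other inhibitor lists described below. The melanocyte and erythroid lists ran the other way, and the remaining lists had neither order. The part of any list in the serpin values was not tested.

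**Figure D3:**
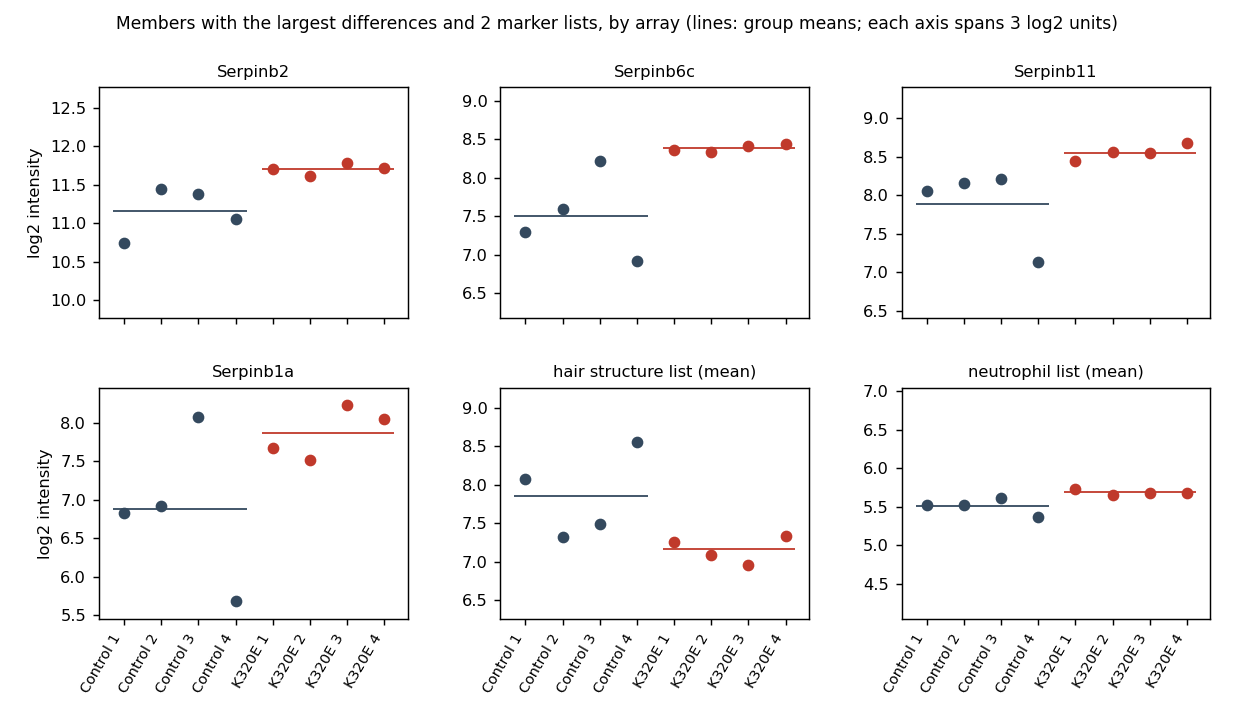
Panels give the log2 intensity of Serpinb2, Serpinb6c, Serpinb11 and Serpinb1a and the mean log2 intensity of the hair structure and neutrophil marker lists on each of the 8 arrays, with group means as lines and a y axis that spans 3 log2 units in every panel. Control replicate 4 is the lowest array for Serpinb6c (6.91), Serpinb11 (7.13) and Serpinb1a (5.68) and the highest for the hair structure list (8.56).

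The remaining genes of the chromosome 1 cluster differed less. Serpinb5 encodes maspin, a clade B serpin that does not inhibit proteases and is a marker of epithelial cells. Its K320E values had the smallest SD of the 25 genes (0.012), at 11.76 to 11.79, against 11.72 to 11.96 in controls, and a difference of -0.063 (95% interval -0.21 to 0.079). Serpinb7, whose loss in humans causes a palmoplantar keratosis, measured 11.00 to 11.19 in K320E and 10.94 to 11.20 in controls. Its difference was 0.015 (95% interval -0.17 to 0.20). Serpinb12, an inhibitor of trypsin-like enzymes in surface epithelia, measured 10.94 to 11.15 against 10.66 to 11.22, a difference of 0.029 (95% interval -0.23 to 0.29). Serpinb8, an inhibitor of furin whose loss in humans causes peeling skin, measured 9.98 to 10.29 against 9.72 to 10.22, a difference of 0.14 (95% interval -0.15 to 0.42). For these 4 genes the groups overlapped, and every interval from all 8 arrays lay within 0.5 on either side of 0. Without control replicates 2 and 3 the differences were 0.36 (SE 0.098) for Serpinb8, 0.21 for Serpinb12, 0.14 for Serpinb7 and 0.025 for Serpinb5, and none passed limma's test.

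The Serpinb3 genes are the mouse counterparts of the human squamous cell carcinoma antigens, which inhibit cathepsins and chymotrypsin-like proteases. All 3 measured genes had a negative difference, and none passed the test. Serpinb3a measured 10.61 to 10.79 in K320E and 10.57 to 11.00 in controls, a difference of -0.075 (95% interval -0.29 to 0.14). Serpinb3d differed by -0.25 (95% interval -0.60 to 0.11). Serpinb3c measured 7.45, 7.66, 6.93 and 7.80 in K320E and 7.48, 8.43, 8.56 and 7.11 in controls, a difference of -0.44 (95% interval -1.18 to 0.31). Control replicates 2 and 3 were the high ones, and without them the sign turned for Serpinb3c (0.16) and Serpinb3a (0.070). The paralogs share sequence, so a probe set may take up transcripts of its neighbours and the value of each single member is uncertain.

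Serpinb13 was the 1 gene whose K320E values all lay below all control values. It measured 4.64 to 4.76 in K320E and 4.79 to 5.21 in controls, all below background, a difference of -0.25 (SE 0.089, limma adjusted p = 0.235). Without control replicates 2 and 3 it was -0.38 (limma adjusted p = 0.123).

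Among the other chromosome 13 genes, Serpinb6a measured 7.90 to 8.16 in K320E and 7.72 to 7.94 in controls. Its difference was 0.19 (SE 0.080, limma adjusted p = 0.306), and K320E replicate 2 lay within the controls. A further probe set that names Serpinb6a with 1110046J04Rik had a difference of -0.025. Serpinb6b measured 6.58 to 6.90 against 6.36 to 6.92, a difference of 0.11 (95% interval -0.17 to 0.38). Serpinb9, the inhibitor of granzyme B, lay at 5.73 to 6.19 on the 8 arrays, at the background level, with a difference of -0.096. Its target Gzmb was below background on all 8. Serpinb9b, a duplicate of Serpinb9, measured 6.89 to 7.40 against 6.79 to 7.27, a difference of 0.19 (95% interval -0.12 to 0.51). Its dimmer probe set, below background, had a difference of 0.098. The other 7 Serpinb6 and Serpinb9 duplicates, all below background, had differences from -0.059 (Serpinb9g) to 0.16 (Serpinb9f). Without control replicates 2 and 3 the differences were 0.28 for Serpinb6b, 0.34 for Serpinb9b, -0.22 for Serpinb9 and 0.15 for Serpinb1b, and none passed limma's test.

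Serpins outside clade B were set beside these genes. Of 29 measured, 0 rose and 1 fell in limma's test, with a median difference of -0.002. Only 6 of the 29 were above background on all 8 arrays and 18 were below it on all 8, so low signal limits this median. The gene that fell was Serpina3j, by 0.72 (SE 0.12, limma adjusted p = 0.0372), at 5.65 to 6.13 in K320E and 6.53 to 6.94 in controls. With any 1 of the 8 arrays removed it no longer passed, at limma adjusted p from 0.053 to 0.095, and 2 of its K320E values were below background. Serpina3b, of the same duplicated family, had a difference of -1.17 (SE 0.27, limma adjusted p = 0.0945), and its control replicate 4 was highest at 9.27. Without that array the difference was -0.86 and passed the threshold (limma adjusted p = 0.0193). Serpina1b had a difference of -0.20 at values below background.

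Proteases that clade B serpins or their relatives restrain were described from a list of 28 genes. Of these 1 rose and 0 fell, 20 differences were positive and the median was 0.076, against 49.7% positive and -0.001 over all genes. On all 8 arrays 15 of the 28 were above background, and all genes above background had 55.7% positive and a median of 0.026. Klk6, a trypsin-like kallikrein, measured 9.08, 8.45, 8.83 and 8.69 in K320E and 7.04, 7.68, 7.72 and 7.23 in controls. All K320E arrays were above all controls, and Klk6 rose by 1.34 (SE 0.18, limma adjusted p = 0.0132). It lost its call without K320E replicate 3 (limma adjusted p = 0.0563). The apoptotic protease gene Casp8 had a difference of 0.30 (limma adjusted p = 0.157) and Furin, the target of Serpinb8, one of 0.37 (limma adjusted p = 0.183). Plau, which encodes the urokinase that Serpinb2 inhibits and was singled out after its value was seen, measured 8.82 to 9.32 in K320E and 8.25 to 8.81 in controls. Its difference was 0.38 (SE 0.14, limma adjusted p = 0.244).

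Other protease inhibitors of the epidermis were read from a list of 18 genes, with 1 that rose, 0 that fell and a median of 0.072. Over all genes 0.685% rose, 0.194% fell and the median was -0.001. Of the 18 differences 10 were positive, against 49.7% of all genes. On all 8 arrays 15 of the 18 were above background, and all genes above background had 55.7% positive and a median of 0.026. Slpi, a secreted inhibitor of neutrophil elastase, rose by 2.43 (SE 0.33, limma adjusted p = 0.0142), and lost its call without K320E replicate 3 or 4 (limma adjusted p up to 0.0626). Wfdc12, of the same protein family, had a difference of 0.84 (SE 0.16, limma adjusted p = 0.052), with K320E at 7.96 to 8.62 and controls at 7.01 to 7.50. It passed the threshold with the dimmest genes left out (limma adjusted p = 0.0247) and with an intensity trend and robust prior (limma adjusted p = 0.0263), while the mean over its probe sets had a difference of 0.44 (limma adjusted p = 0.233). Wfdc5, its relative, had a difference of 0.35 (limma adjusted p = 0.26), or 0.55 without control replicates 2 and 3 (limma adjusted p = 0.096).

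**Figure D4:**
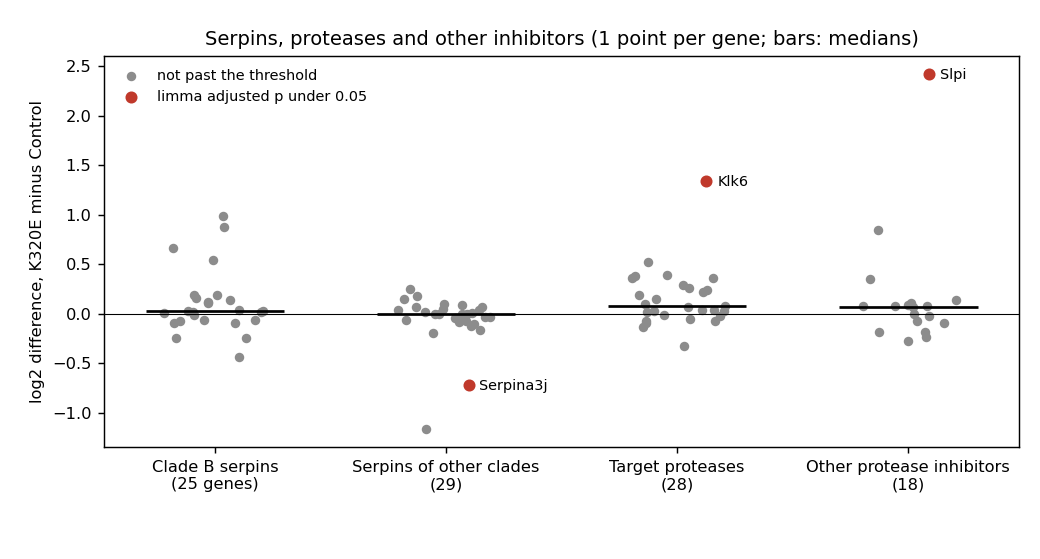
Each point is the log2 difference of K320E minus control for 1 gene in the lists of clade B serpins, serpins of other clades, target proteases and other protease inhibitors, with the median of each list as a bar. Larger points, labelled by name, passed limma's test over all genes: Serpina3j (-0.72), Klk6 (1.34) and Slpi (2.43), and no clade B serpin.

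Other marker lists held few genes past the threshold. Of 9 Langerhans and dendritic cell markers 2 fell, H2-Ab1 by 0.98 (limma adjusted p = 0.0129) and H2-Aa, and Cd207, the defining Langerhans gene, was below background on all arrays. Of 11 T and NK cell markers 1 rose, Thy1 by 0.69 (limma adjusted p = 0.0495), while 2 of the 11 differences were positive and the list median was -0.16. Cd3g and Cd3d, which encode chains of the T cell receptor complex, had K320E values below all controls, with differences of -1.19 (limma adjusted p = 0.136) and -0.75 (limma adjusted p = 0.0645). Of 9 sebocyte markers 1 fell, Far2 by 0.39 (limma adjusted p = 0.0253). The other lists (hair structure, keratinocyte, neutrophil, monocyte and macrophage, mast cell, melanocyte, fibroblast, endothelium, skeletal muscle, erythroid) had 0 genes past the threshold in limma's test. Several of them still ran mostly one way. Of the hair structure genes 1 of 18 differences was positive (median -0.77), and of the melanocyte genes 1 of 9 (median -0.29). All 10 skeletal muscle differences were positive (median 0.32).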

How the data were processed

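Total RNA from newborn epidermis was amplified and biotin-labelled with the Applause WT-Amp Plus ST system, per the labels' protocols. The values the authors deposited are log2 intensities of 33793 probe sets, from 4.31 to 13.1, with array medians of 6.06 to 6.11. How they were background-corrected, summarised and normalised is not given in the sources used here. Probe sets were named through GEO's platform annotation: 23521 name 1 gene, 1814 several and 8458 none. Gene order and upstream sequence came from RefSeq tables of GRCm38.p6.

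All 8 arrays entered 1 limma fit (version 3.58.1, R 4.3.3) with genotype as the only term, Benjamini-Hochberg adjustment over 22180 genes and a threshold of 0.05. The intervals are limma's and are not adjusted for the number of genes. Named genes were every Serpinb gene, Twnk, the called genes of each pathway list or, with fewer than 3, the 3 with the lowest p, and the 2 brightest of each cell type list. Outside this rule, with values already known, are H2-Aa, Cd3g, Cd3d, Cd207, Plau, Prtn3, Ctsg, Gzmb and the neutrophil genes other than Cxcr2 and Mmp8. The members and lists were chosen with earlier results of these data known. The fit was tested on simulated data.

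Scaling alternatives were median centring and quantile normalisation. Others used all probe sets or their mean per gene, left out the 33.3% dimmest genes, changed the prior (intensity trend, robust), weighted arrays by quality, or added a replicate block or a Y-linked covariate. A minimum fold of 1.5, a background level at the 99th percentile, and fits without each array or without control replicates 2 and 3 completed them.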

Additional observations from a re-analysis of the deposited data

Results flagged for a closer look

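In groups of 4 arrays, a single array was far from the other 3 for 6 gene and group pairs of 70 examined, 5 of them among the 50 of clade B serpins. Chance flags about 1 in 20 groups, and over all genes 5.92% were flagged. Serpinb11 was at 7.13 in control replicate 4, with the other controls at 8.05 to 8.21. Serpinb3a was at 10.61 in K320E replicate 1, with the others at 10.77 to 10.79. Serpinb1b was at 5.94 in K320E replicate 4 (others 5.26 to 5.33) and at 6.24 in control replicate 2 (others 5.27 to 5.36). Serpinb6d, below background, was at 4.72 in control replicate 1 (others 4.77). Wfdc12 was at 8.62 in K320E replicate 4, with the others at 7.96 to 8.04.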

How the results depend on the processing

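Under 17 of the 19 alternatives of the fit limma called 0 clade B serpins. Without control replicate 3 it called 1 (Serpinb6c), and without control replicates 2 and 3 it called 2 (Serpinb2 and Serpinb6c). Leaving out those arrays removes the higher controls of these genes. Over the 8 fits that each left out 1 array the count ran from 0 to 1. Whether the replicate number paired the samples could not be decided. In their deviations from the group means, same-numbered arrays correlated at -0.065 to 0.137. Replicates 1 and 4 correlated best with their own number, and replicates 2 and 3 did not. With the replicate block 0 clade B serpins, 0 serpins of other clades and 0 target proteases were called, and 114 of all genes. With a minimum fold of 1.5, 6 genes were called, with 0 in each of the lists. Leaving out each array gave 53 to 173 calls over all genes, 0 to 1 among serpins of other clades, 0 to 1 among target proteases and 0 to 1 among other inhibitors. Without control replicates 2 and 3, 0 serpins of other clades were called. Leaving out the 33.3% dimmest genes gave 2 serpins of other clades and 2 other inhibitors, and the intensity trend with a robust prior 2 other inhibitors. Of 466 refitted differences of clade B serpins 23 changed sign, in 10 genes, none of which passed the test. Without control replicates 2 and 3 the signs turned for Serpinb5 (0.025), Serpinb3a (0.070), Serpinb3c (0.16), Serpinb1b (0.15) and Serpinb6e (-0.080). They turned for Serpinb12 with array weights (-0.016) and Serpinb9e with quantile normalisation (0.006). Leaving out each array, the ranges were -0.085 to 0.10 for Serpinb12, -0.027 to 0.061 for Serpinb7, -0.25 to 0.14 for Serpinb1b, -0.009 to 0.040 for Serpinb9c, -0.012 to 0.080 for Serpinb9d, -0.049 to 0.023 for Serpinb9e and -0.041 to 0.072 for Serpinb6e. The causes were not tested. Low signal limits the 8 genes below background on all arrays. The count above background was 9 with the 99th percentile, 13 with quantile normalisation or median centring, and 13 to 14 leaving out each array.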
